A study of Mus musculus with 4 samples.

Results

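Potassium channel subunits were compared between dorsal root ganglia of the 2 spinal levels of the series, the sample-1 level and the sample-2 level. The members were all probe sets whose only gene symbol in the platform annotation begins with Kcn. There were 167 such probe sets for 84 genes, of 34945 probe sets with 1 symbol for 18193 genes. Total RNA from freshly dissected mouse ganglia was hybridised to 4 Affymetrix arrays, 2 per level. The levels are not named in the labels used here, and no genotype or treatment that differs between them is given. Nothing states whether the 2 arrays of a level represent different animals, so each p-value reflects array-to-array variation alone and that variation could be technical.

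Potassium channels let potassium leave the cell, which repolarises the action potential, sets the resting potential and limits repetitive firing. Voltage-gated subunits assemble as tetramers that open on depolarisation, with cytoplasmic and membrane partners (Kcnab, Kcnip, Kcne) that tune them. Inward rectifiers (Kcnj) pass current near rest and clear extracellular potassium in glia. Two-pore channels (Kcnk) carry background leak, and calcium- or sodium-activated channels (Kcnm, Kcnn, Kcnt) open after spikes. In sensory ganglia, large myelinated neurons and small-diameter neurons are known to use different sets of these subunits.

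Values are deposited intensities on a linear scale. Differences are sample-2 level minus sample-1 level on log2(intensity + 16), with their standard error, and "called" means a Benjamini-Hochberg adjusted p under 0.05 in limma over all 27022 tested probe sets. Adding 16 makes the difference of a dim probe set smaller than its ratio. A probe set was tested when its mean log2 value reached the 40th percentile, an intensity of 14.3. Of the 167 Kcn probe sets, 112 passed, for 66 genes. Across the tested probe sets the correlation within a level was 0.987 for both levels, and it was 0.982 to 0.986 for arrays from different levels. The 10 defining markers of sensory neurons were all tested and summed to 50004 and 51271 against 53244 and 48842. Skeletal muscle markers summed to 8906 on sample-1 array 2 and to 1424 to 2073 on the other arrays.

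One probe set each of Kcnc1, Kcna6 and Kcnk1 fell at the sample-2 level, and no Kcn probe set was called higher. Kcnc1 is a fast delayed rectifier of rapidly firing neurons, Kcna6 a subunit of low-threshold delayed rectifiers, and Kcnk1 a two-pore leak channel. These 3 calls were 2.68% of the tested Kcn probe sets, against 0.622% called in either direction and 0.400% called lower among all tested probe sets. At an unadjusted p under 0.05 there were 14 lower (12.5%) and 14 higher (12.5%), against 5.53% and 5.33%. The arrays of the levels did not overlap for 20 that were lower (17.9%) and 33 that were higher (29.5%), against 20.1% and 21.1%. The median difference was 0.05 over the tested Kcn probe sets and 0.00 over all tested probe sets. Of the tested Kcn probe sets 56.25% lay above 0, against 51.1% of all tested probe sets. With each gene taken by its brightest tested probe set, 35 genes lay above 0 and 31 below, with a median of 0.03. By that count 1 of 66 genes was called, Kcnk1, since the called probe sets of Kcnc1 and Kcna6 are not their brightest.

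All 3 calls were lost when the filter on low signal was left out (0 Kcn and 4 probe sets in all called). In that limma fit 27 of 167 Kcn probe sets had an unadjusted p under 0.05, against 3777 of 45037 in all. The 3 calls were also lost without the intensity trend in the variance (0 Kcn and 1 in all called). There 22 of 112 Kcn probe sets had an unadjusted p under 0.05 in limma, against 2456 of 27022 in all.

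**Figure D1:**
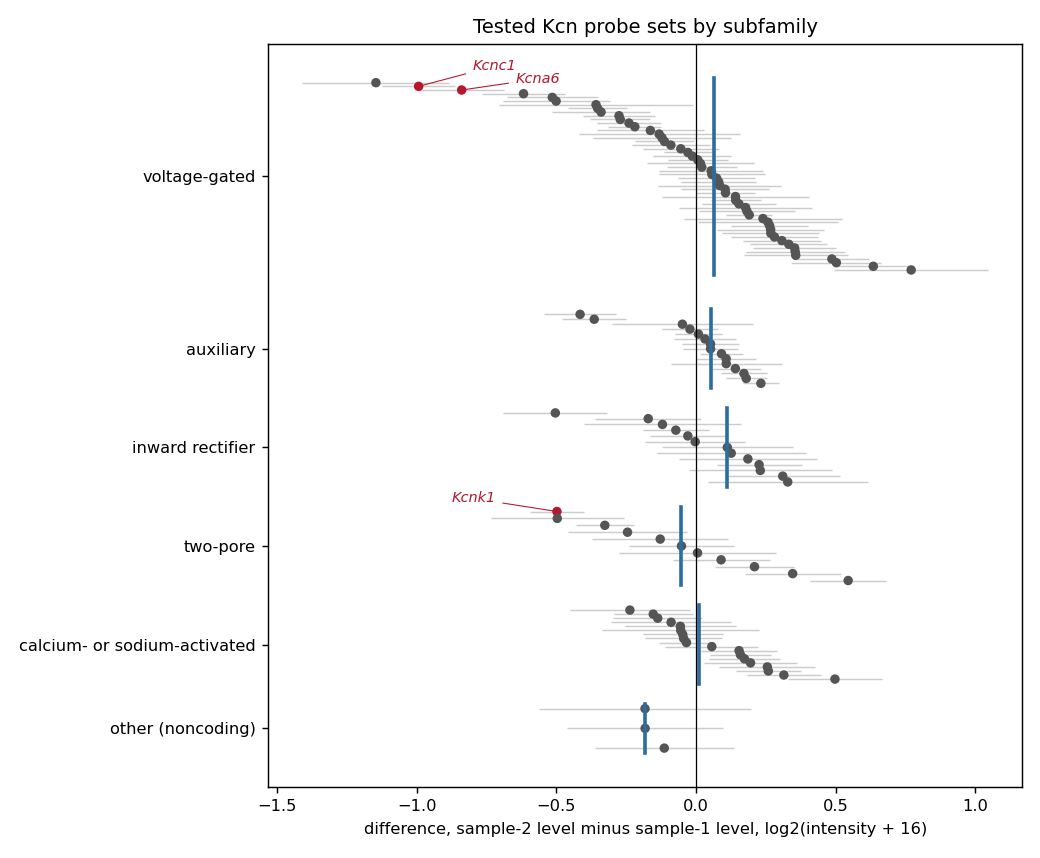
Each point is the difference of 1 tested Kcn probe set (x axis, log2(intensity + 16), sample-2 level minus sample-1 level) with its standard error as a grey bar, grouped by subfamily, and blue lines are the medians. The 3 called probe sets, in red, lie at -0.99 (Kcnc1), -0.84 (Kcna6) and -0.50 (Kcnk1), and the subfamily medians lie between -0.18 and 0.11.

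The windows before the RefSeq start sites of these genes (GRCm38.p6) are shown because they are the members with a call. Each holds 250 bases upstream of the start, 5′ to 3′ on the gene's strand. Capitals mark a GC box, spelled GGGCGG, on either strand. The windows were also searched on both strands for the CCAAT box, for a TATA box spelled TATAAA, and for an E-box spelled CACGTG. Only Kcnc1 held a match, to the GC box at 3 places.
Kcnc1, chr7:46396218-46396467, plus strand: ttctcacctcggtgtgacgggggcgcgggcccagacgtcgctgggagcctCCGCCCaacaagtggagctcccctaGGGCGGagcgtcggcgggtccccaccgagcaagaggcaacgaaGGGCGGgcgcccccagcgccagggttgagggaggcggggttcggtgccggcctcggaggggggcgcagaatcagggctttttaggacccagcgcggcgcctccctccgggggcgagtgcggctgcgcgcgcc
Kcna6, chr6:126740675-126740924, minus strand: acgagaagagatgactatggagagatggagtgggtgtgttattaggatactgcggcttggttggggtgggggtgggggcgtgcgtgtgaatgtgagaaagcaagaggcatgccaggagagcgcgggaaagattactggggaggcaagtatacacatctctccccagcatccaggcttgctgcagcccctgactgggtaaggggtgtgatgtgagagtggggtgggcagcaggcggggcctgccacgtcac
Kcnk1, chr8:125994852-125995101, plus strand: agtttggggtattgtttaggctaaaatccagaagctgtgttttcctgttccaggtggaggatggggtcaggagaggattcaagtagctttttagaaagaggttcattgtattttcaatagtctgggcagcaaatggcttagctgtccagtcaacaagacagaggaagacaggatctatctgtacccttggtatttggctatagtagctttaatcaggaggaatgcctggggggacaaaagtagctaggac
G and C made up 74.4% of the Kcnc1 window, 58.8% of the Kcna6 window and 44.4% of the Kcnk1 window, against a median of 52.4% over all 32851 RefSeq windows of this length. A GC box was in 32.7% of all windows, a CCAAT box in 33.8%, a TATA box in 12.4% and an E-box in 6.0%. Among 89 windows of 64 Kcn genes these shares were 44.9%, 30.3%, 3.4% and 5.6%. A match describes the letters only.

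Kcnc subunits form channels that close fast enough for high-frequency firing, and 1 probe set of the group, of Kcnc1, was called. The called Kcnc1 probe set (1456944_at) read 241 and 263 against 129 and 109, with both sample-2 arrays far below both sample-1 arrays. Its mean was 252 ± 15.3 (SD, n = 2) at the sample-1 level and 119 ± 13.9 (SD, n = 2) at the sample-2 level. It fell 2.12-fold (-0.99 ± 0.13, adjusted p = 0.00677), and dropping any one array left the adjusted p between 0.00663 and 0.0335. A second Kcnc1 probe set (1423559_at) read 114 and 151 against 79.99 and 95.2, also without overlap but not called (-0.51 ± 0.16, adjusted p = 0.234). The third (1443855_at) read 183 and 181 against 155 and 196 and overlapped (-0.05 ± 0.14, adjusted p = 0.932).

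Kcnc2, a fast-firing relative of Kcnc1, read 199 and 161 against 244 and 271, higher on both sample-2 arrays and not called (0.49 ± 0.13, adjusted p = 0.153). Kcnc4, an inactivating member of the group, read 53.9 and 59.2 against 88.7 and 84.7 with 1 probe set (0.50 ± 0.16, adjusted p = 0.241) and 224 and 239 against 255 and 342 with another (0.33 ± 0.14, adjusted p = 0.404). The suffix of the latter (1425090_s_at) marks probes that can match several transcripts. Neither Kcnc4 probe set overlapped between levels, and neither was called.

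Kcna5, Kcna1 and Kcna6 are neighbours on chromosome 6 in the RefSeq gene order. The 3 tested Kcna6 probe sets had differences on both sides of 0. The called one (1441049_at) read 126 and 133 against 60.8 and 69.5, 1.98-fold lower without overlap (-0.84 ± 0.15, adjusted p = 0.0327). The brightest (1456954_at) read 285 and 306 against 557 and 392, higher without overlap and not called (0.63 ± 0.14, adjusted p = 0.0808). The third (1421568_at) read 110.5 and 106 against 115 and 114, a difference within its error (0.07 ± 0.14, adjusted p = 0.904). The call of 1441049_at was lost whichever array was left out, at an adjusted p of 0.0538 to 0.132. The brightest probe set was called higher without sample-2 array 2 (adjusted p = 0.0146), and its adjusted p was 0.131 to 0.304 without one of the others.

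Whether the probe sets of a gene differed in their level effect was tested for each gene with several tested probe sets (limma diffSplice, a test added after the Kcna6 values were seen). It called 0 of 6308 genes (0.00%), and 351 had an unadjusted p under 0.05. Kcna6 was not called (adjusted p = 0.294, and 0.106 to 0.802 over the other settings). Of 32 Kcn genes in the test, Kcna6, Kcnc1 (adjusted p = 0.705) and Kcnmb2 (adjusted p = 0.751) had an unadjusted p under 0.05. For 18 of the 32 genes all tested probe sets lay on one side of 0.

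Kcna1, a subunit clustered beside the nodes of myelinated axons, had 3 bright probe sets with lower means at the sample-2 level. The first (1417416_at) read 1721 and 1535 against 1425 and 1131, without overlap (-0.35 ± 0.11, adjusted p = 0.205). It was called only without sample-2 array 1 (adjusted p = 0.0363) among the runs that leave out an array. Without sample-2 array 2 its difference was -0.19. The second (1437230_at) read 1410.0 and 1249 against 1222 and 1059 (-0.22 ± 0.09, adjusted p = 0.424). The brightest (1455785_at) read 2777 and 2395 against 2505 and 1898 and overlapped (-0.24 ± 0.11, adjusted p = 0.481). Its difference was -0.04 without sample-2 array 2 and -0.44 without sample-2 array 1. A dim probe set (1442413_at) read 17.7 and 8.29 against 16.4 and 19.2. Kcna2, the usual partner of Kcna1 in those clusters, read 988 and 961 against 1000.3 and 911 (-0.03 ± 0.09, adjusted p = 0.944), and its other tested probe sets differed by -0.11 and 0.02. All 3 tested Kcna2 probe sets overlapped. Kcna4, an inactivating subunit of small neurons, read 105 and 99.6 against 97.1 and 143 (0.18 ± 0.17, adjusted p = 0.771) and, with another probe set, 106 and 82.6 against 114 and 121 (0.28 ± 0.15, adjusted p = 0.558).

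**Figure D2:**
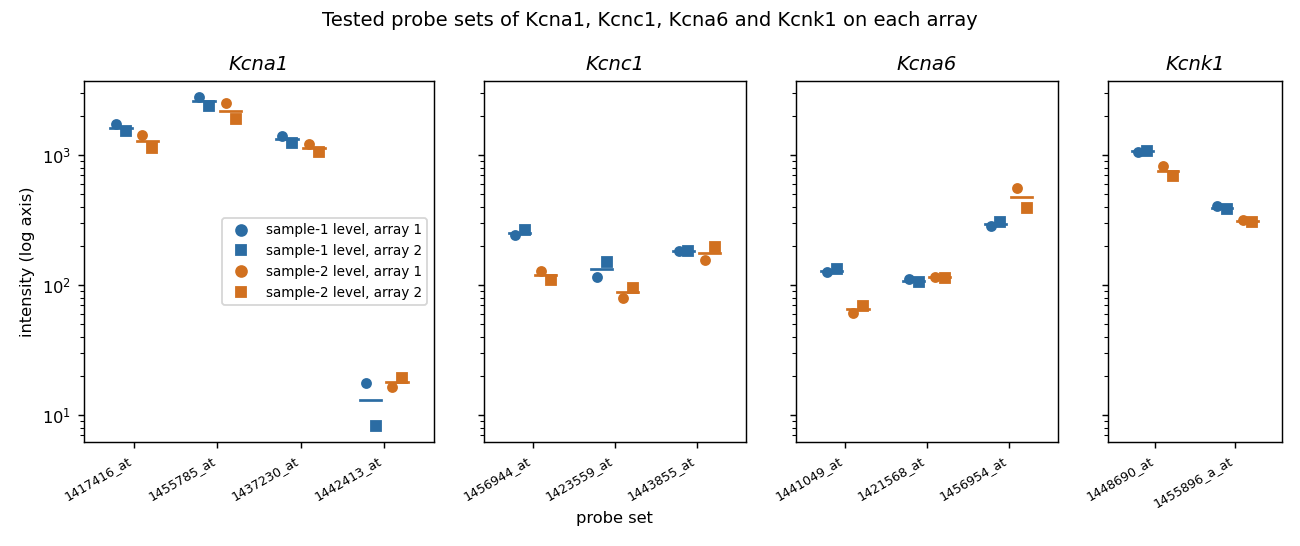
Intensity on a log axis of every tested probe set of Kcna1, Kcnc1, Kcna6 and Kcnk1 on the 4 arrays, with sample-1 arrays in blue, sample-2 arrays in orange and the mean of each level as a line. Both Kcnk1 probe sets lie lower at the sample-2 level, while the means of the Kcna6 probe sets run from 129 against 65.2 to 296 against 475.

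Kcns, Kcng, Kcnf and Kcnv subunits form no channel alone but join other voltage-gated subunits and change their gating. Kcns1, known from myelinated sensory neurons, read 151 and 182 against 112 and 93.5 (-0.62 ± 0.15, adjusted p = 0.103). Kcng4 read 51.1 and 55.9 against 32.3 and 33.8 (-0.50 ± 0.19, adjusted p = 0.345). Both were lower on both sample-2 arrays without a call. Kcnf1 read 9.52 and 28.2 against 38.9 and 43.8, higher without overlap and not called (0.77 ± 0.28, adjusted p = 0.303). One sample-1 array of Kcnf1 lies below the filter level, and the difference was 1.27 with a pseudocount of 1 and 0.35 with one of 64. It was 0.37 without sample-1 array 1 and 1.17 without sample-1 array 2. Kcns2 read 42.7 and 58.1 against 63.3 and 73.9 (0.36 ± 0.19, adjusted p = 0.531). The brightest Kcns3 probe set overlapped (176 and 229 against 191 and 208), and another did not (159 and 197 against 233 and 199). Differences of the 3 Kcnv1 probe sets ran from -0.09 to 0.27.

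Kcnq3 and Kcnq5 contribute to the M current, a slow brake on firing, while Kcnq1 is best known from heart and epithelia. Kcnq1 read 31.2 and 31.4 against 4.53 and 6.24, lower without overlap and not called (-1.15 ± 0.26, adjusted p = 0.0856). It passed the filter through the sample-1 arrays, since both sample-2 values lie below the filter level. The difference was -0.46 with a pseudocount of 64, and with one of 1 the probe set did not pass the filter, so neither its size nor its rank among the Kcn probe sets is settled. Both Kcnq5 probe sets were lower without overlap and not called, at 159.9 and 158 against 132 and 126 (-0.28 ± 0.13, adjusted p = 0.47) and 76.3 and 67.2 against 48.8 and 57.99 (-0.34 ± 0.17, adjusted p = 0.518). Kcnq3 read 244 and 214 against 285 and 229.6 and overlapped (0.15 ± 0.13, adjusted p = 0.742). Kcnh2, which carries the erg current, read 358 and 393 against 299 and 318 (-0.27 ± 0.11, adjusted p = 0.369). The other 5 tested Kcnh genes differed by -0.16 to 0.35, with none called.

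Kcnd genes carry the fast inactivating A-type current, and Kcnip proteins bind them in the cytoplasm. The brightest Kcnd3 probe set read 1038 and 975 against 1129.6 and 1172 (0.19 ± 0.08, adjusted p = 0.421). Its dimmer ones overlapped, at 0.06 and -0.12. Kcnd1 read 784 and 762 against 901 and 810.3 (0.14 ± 0.09, adjusted p = 0.617), with another probe set at 121 and 118 against 165 and 139 (0.31 ± 0.14, adjusted p = 0.453). The 3 Kcnip4 probe sets were each higher without overlap. The brightest read 2599.9 and 2599 against 3083 and 3029 (0.23 ± 0.07, adjusted p = 0.167), and the others differed by 0.18 and 0.17. Kcnip1 had 2 tested probe sets, each lower without overlap, at 338 and 273 against 214 and 235 (-0.42 ± 0.13, adjusted p = 0.217) and 268 and 284 against 205 and 217 (-0.36 ± 0.11, adjusted p = 0.226). Kcnip2 and Kcnip3 probe sets differed by -0.05 to 0.14. No Kcnd or Kcnip probe set was called.

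The beta subunits Kcnab1 and Kcnab2 bind Kcna channels in the cytoplasm. Kcnab1 read 1345 and 1457 against 1478 and 1507 (0.09 ± 0.08, adjusted p = 0.741). Kcnab2 read 1921 and 2178 against 2168 and 1952 (0.01 ± 0.08, adjusted p = 0.985), a difference that turned to -0.0054 with arrays centred on their medians. Among Kcne genes, membrane partners of voltage-gated channels, Kcne4 was tested and read 42.9 and 55.2 against 62.2 and 46.3. In all, 52 voltage-gated and 15 auxiliary probe sets were tested, with median differences of 0.07 and 0.05 and with 2 and 0 called.

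Among two-pore channels, Kcnk1 fell at the sample-2 level. Its called probe set (1448690_at) read 1052 and 1081 against 818 and 688, 1.42-fold lower (-0.50 ± 0.10, adjusted p = 0.0461). The other (1455896_a_at) read 407 and 383 against 319 and 305 and was not called (-0.33 ± 0.10, adjusted p = 0.234). Both had every sample-2 array below every sample-1 array. The call was lost without sample-1 array 1 (adjusted p = 0.111), sample-1 array 2 (adjusted p = 0.15) or sample-2 array 2 (adjusted p = 0.202), with a pseudocount of 1 (adjusted p = 0.0541) and with median centring (adjusted p = 0.0742). Kcnk2, a mechanically and thermally sensitive leak channel, read 119 and 104 against 165 and 175 (0.54 ± 0.14, adjusted p = 0.118). Its mechanosensitive relative Kcnk4 read 40.02 and 49.3 against 36.002 and 19.3 (-0.50 ± 0.24, adjusted p = 0.481). Kcnk3, an acid-sensitive leak channel, read 51.2 and 59.8 against 80.2 and 69.5 (0.35 ± 0.17, adjusted p = 0.499). None of these 3 overlapped between levels or was called. Probe sets of the other 5 tested two-pore genes differed by -0.25 to 0.21, and the median over 11 two-pore probe sets was -0.05.

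No inward rectifier was called among 13 tested probe sets of 9 genes, whose median was 0.11. Kcnj13 read 57.99 and 60.8 against 40.5 and 33.98, lower without overlap (-0.50 ± 0.19, adjusted p = 0.327). Kcnj10, the potassium-buffering channel of satellite glia, read 174 and 146 against 164 and 149 (-0.03 ± 0.14, adjusted p = 0.967). Kcnj12 read 98.3 and 91.5 against 64.99 and 104 (-0.17 ± 0.19, adjusted p = 0.812), so it overlapped like Kcnj10. Kcnj3, a subunit gated by G proteins, read 102 and 83.8 against 115 and 106 with its brightest probe set (0.23 ± 0.15, adjusted p = 0.648). For inward rectifiers, 18 of 31 probe sets were below the filter.

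Calcium- and sodium-activated channels had 18 tested probe sets of 10 genes, a median difference of 0.01 and 0 called. These counts include Kcnu1, which was grouped here by its symbol (-0.05 ± 0.14, adjusted p = 0.944). Kcnma1, the large-conductance calcium-activated pore, read 113 and 117 against 109 and 113 (-0.04 ± 0.14, adjusted p = 0.947), a gap well within its error. Its partner Kcnmb4 read 407 and 398 against 399 and 386 (-0.03 ± 0.10, adjusted p = 0.942). Kcnmb2, an inactivating partner, read 54.2 and 71.6 against 90.4 and 99.1 with 1 probe set (0.50 ± 0.17, adjusted p = 0.275) and 102 and 82.6 against 79.4 and 84.8 with a brighter one (-0.14 ± 0.16, adjusted p = 0.819), on opposite sides of 0. Kcnn1, a small-conductance channel of the afterhyperpolarisation, read 123 and 134 against 156 and 172 (0.31 ± 0.13, adjusted p = 0.411). Kcnt1, a sodium-activated channel, read 191 and 191 against 224 and 239.9 (0.26 ± 0.12, adjusted p = 0.455), and its 3 probe sets differed by 0.15 to 0.26. Its relative Kcnt2 read 48.4 and 53.8 against 36.03 and 60.4 and overlapped.

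**Figure D3:**
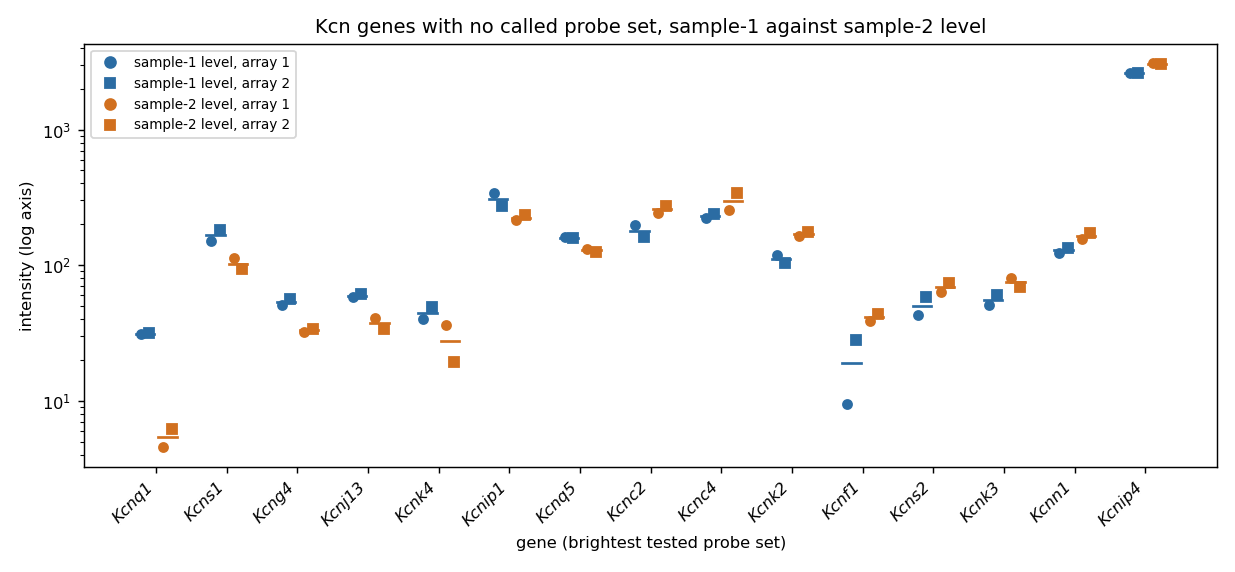
Intensity on a log axis of 15 Kcn genes without a called probe set, each by its brightest tested probe set, with sample-1 arrays in blue, sample-2 arrays in orange and the mean of each level as a line. From Kcns1 (166 against 103 in the means) to Kcnq5 the sample-2 level is lower, as for Kcnq1, whose sample-2 values lie below the filter level, and from Kcnc2 (180 against 258) to Kcnip4 it is higher, with no overlap between levels.

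Of the noncoding RNAs, Kcnq1ot1, made from the opposite strand of the Kcnq1 locus, had 2 tested probe sets, both at -0.18 and overlapping. The remaining 55 Kcn probe sets were below the filter, with single-array intensities from 0.0945 to 26.7. No probe set was tested for 18 genes, namely Kcna3, Kcnab3, Kcne1, Kcne1l, Kcne2, Kcne3, Kcnj1, Kcnj2, Kcnj5, Kcnj9, Kcnj14, Kcnj15, Kcnk7, Kcnk15, Kcnk16, Kcnmb4os1, Kcnn3 and Kcnv2. No detection calls were used, so whether these genes were expressed cannot be judged from these values.

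Lists of proteins and markers, chosen with earlier results of these data known, were counted by each gene's brightest tested probe set. Among all tested probe sets 51.1% lay above 0 and 0.622% were called. Of 31 proteins listed as anchoring, clustering, trafficking or regulating these channels, 24 were tested, 11 above and 13 below 0, with a median of -0.01. Cntnap2, which holds Kcna1 and Kcna2 beside the nodes, was the 1 called, lower at 727 and 834 against 556 and 539 (-0.50 ± 0.10, adjusted p = 0.0474). That call was lost without sample-1 array 2 or either sample-2 array. Cntn2, its partner at that site, read 258 and 226 against 352 and 336 (0.48 ± 0.11, adjusted p = 0.0948). Ank2, a membrane anchor, read 1689.7 and 1485 against 2189.7 and 1900.1 (0.36 ± 0.09, adjusted p = 0.12). Both were higher without overlap and not called. Dpp10, which speeds Kcnd channels, read 854 and 879 against 996 and 1011 (0.21 ± 0.08, adjusted p = 0.364), and its relative Dpp6 read 1094 and 1116 against 1042 and 1017 (-0.10 ± 0.08, adjusted p = 0.712).

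Listed markers of cell classes also differed between the levels. The lists were chosen with earlier results of these data known, so their counts describe the listed genes and are not independent evidence. In whole-ganglion RNA fewer cells of a type and less RNA per cell cannot be told apart. Among all 27022 tested probe sets 51.1% lay above 0, 60 were called higher and 108 lower. Of 12 tested markers of myelinated sensory neurons 7 lay below 0 and 3 were called lower (Pvalb, Calb2 and Cntnap2), with a median of -0.19 and sums of 12857 and 13708 against 11353 and 10287. All 11 tested markers of small-diameter sensory neurons lay above 0 and 4 were called higher (Trpv1, Tac1, Ret and Th), with a median of 0.34 and sums of 16820 and 16303 against 21038 and 20846. Other myelinated markers lay above 0 without a call, among them Cacna1h (0.51 ± 0.13, adjusted p = 0.122), Ntrk2 (0.47 ± 0.11, adjusted p = 0.0784) and Calb1 (0.23 ± 0.09, adjusted p = 0.352). The part of either class in the Kcn differences was not tested. All 6 tested Schwann cell markers lay below 0 with 2 called (sums 18630 and 16962 against 16483 and 12954), as did all 7 of satellite glia with 0 called (sums 12648 and 13193 against 12909 and 11892). All 9 tested markers of fibroblasts and meninges lay below 0 with 6 called (sums 15192 and 13300 against 8838 and 8400). Of 8 neutrophil markers all lay above 0 and 6 were called higher (sums 3303 and 3954 against 6625 and 8329). The part of these classes was not tested either. The lists share members, since Kcnj10 is also a satellite glia marker, Kcnj8 a marker of pericytes, and Cntnap2 both a partner protein and a myelinated marker. Abcc9 is both a partner protein and a pericyte marker. Nefh is in the sensory neuron and the myelinated list, and its 5637 and 5746 against 5331 and 4506 are part of both sums.

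All 12 skeletal muscle markers lay below 0, and their high sum was on sample-1 array 2. The 1 called, Myh2, read 42.8 and 119.6 against 2.16 and 11.7, and it passed the filter through the sample-1 arrays, since both sample-2 values lie below the filter level. Without sample-1 array 2 the differences were -0.94 for Kcnc1 (1456944_at), -0.80 for Kcna6 (1441049_at) and -0.48 for Kcnk1 (1448690_at), beside -0.99, -0.84 and -0.50 with it. As given above, the Kcna6 and Kcnk1 calls were lost in that fit, which leaves 1 array at the sample-1 level. The part of muscle in the Kcn differences was not tested. The lists of vascular smooth muscle and pericytes, endothelium and macrophages had 0 called, with medians of -0.04, -0.27 and -0.09. Of 2 tested red cell markers 1 was called higher.

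**Figure D4:**
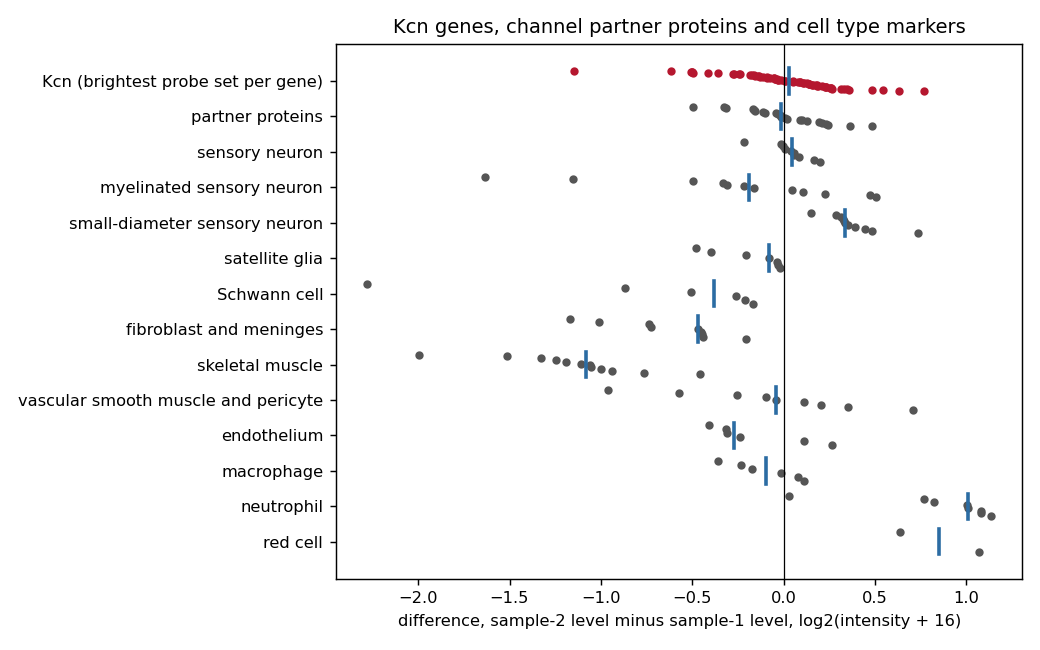
Each point is the difference of 1 gene by its brightest tested probe set (x axis, log2(intensity + 16), sample-2 level minus sample-1 level), with Kcn genes in red, the partner proteins and the marker lists in grey and medians as blue lines. The 66 Kcn genes spread to both sides of 0 around a median of 0.03, while markers of small-diameter neurons have a median of 0.34 and those of myelinated neurons one of -0.19.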

How the data were processed

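Total RNA of mouse dorsal root ganglia was measured on 4 Affymetrix arrays, 2 per level, per the labels. The authors deposited a linear intensity per probe set. Its 2% trimmed mean was 150.0 on every array, so the values had been scaled, and the software is not given in the sources used here. From the deposited intensities, 64 control probe sets were left out, log2(intensity + 16) was taken, and probe sets under the 40th percentile of the mean were not tested. The remaining 27022 went into limma 3.58.1 under R 4.3.3 (linear model by level, eBayes with an intensity trend, no covariate), with Benjamini-Hochberg adjustment over all of them. The procedure was tested on simulated data with independent normal noise and variances drawn from the fitted model. Such data meet the model's assumptions, so that test cannot show whether the real arrays meet them. All 84 Kcn symbols matched RefSeq (GRCm38.p6), which gave gene order and upstream windows.

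The members, the gene lists and the settings were chosen with earlier results of these data known. Values are given for genes with a called probe set, the 8 largest differences each way without overlap between levels, genes known in sensory ganglia, and genes whose probe sets oppose each other. A few more are named to describe their subfamily. Whether array numbers pair the samples is not stated, and the main model did not use them. The r of deviations was 0.03 across probe sets. That value cannot decide the pairing, since it is taken over all probe sets and a shared effect could lie in some of them. With the array number as a replicate block, 793 probe sets were called in all, against 168 in the main fit. The number of arrays limits the precision.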

Additional observations from a re-analysis of the deposited data

How the results depend on the processing

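Leaving out the filter on low signal gave 4 called probe sets in all, 0 Kcn and 0 of the partner list, and leaving out the intensity trend gave 1, 0 and 0. In those limma fits 27 of 167 and 22 of 112 Kcn probe sets had an unadjusted p under 0.05. Among all tested probe sets 3777 of 45037 and 2456 of 27022 did. Median centring gave 104 in all. The partner list had 0 called with a pseudocount of 1, quantile normalization or median centring. The array number as a replicate block gave 793 called in all, 9 Kcn (3 higher, 6 lower) and 3 of the partner list. Whether the numbers pair the samples is not stated. With a pseudocount of 1 the test of probe sets within a gene called 1 gene, which was not a Kcn gene. Without 1 array, 102 to 241 probe sets were called in all, 1 to 3 Kcn and 0 to 1 of the partner list, and the Kcn median was -0.013 to 0.0868. In those fits the lone array of a level is assumed to vary like the other level. Over the 48 named probe sets, 572 recomputed differences kept direction and side of the threshold, 15 lost a call, 8 gained one and 15 turned sign. The turned ones were Kcnab2 1416956_at at -0.0054 with median centring and, without 1 array, differences of -0.0955 to 0.0367 for Kcna2 1440759_at, of -0.0644 to 0.43 for Kcna4 1422255_at, of -0.0818 to 0.0983 for Kcnab2 1416956_at, of -0.21 to 0.0998 for Kcnc1 1443855_at, of -0.27 to 0.0212 for Kcnd3 1426070_a_at. Further such ranges were -0.25 to 0.36 for Kcnd3 1447513_at, -0.14 to 0.0845 for Kcnj10 1419601_at, -0.45 to 0.11 for Kcnj12 1422871_at, -0.19 to 0.16 for Kcns3 1457799_at, -0.37 to 0.19 for Kcnt2 1459971_at. The cause of the changes was not tested.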
